A study of Homo sapiens with 17 samples.

Results

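The transcriptome of SF8628 cells kept in the BET inhibitor AZD5153 for 48 hours was compared with that of cells kept in it for 24 hours. Members were all genes whose mean normalized count (the reads of a gene divided by a size factor for the library) over the 12 RNA-seq libraries was 10 or more, which 15599 of the 60664 genes in the table reached, 14505 of them with a gene symbol. SF8628 is an established line from a diffuse intrinsic pontine glioma, a diffuse midline glioma (DMG) of children, grown as monolayers in serum. The 4 groups were AZD5153 for 24 hours, AZD5153 for 48 hours, vehicle (DMSO) for 24 hours and DMSO for 48 hours, with 3 libraries of total RNA in each, and the inhibitor was given at 1 µM. The labels give the same line for every group and no difference besides agent and time, and DMSO at 48 against 24 hours served to show where inhibited cells changed differently from cells that had only been in culture longer. The labels do not state whether the 3 libraries of a group came from separate cultures, so that p-values measure the spread between these libraries, which may be technical.

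BET proteins bind acetylated lysines of histones through their bromodomains and help RNA polymerase II to leave the promoter by bringing the elongation kinase P-TEFb. AZD5153 is a bivalent inhibitor that can occupy both bromodomains of a BET protein at once. Genes that depend on large acetylated enhancers, among them growth and cell cycle genes, are known to lose transcripts under BET inhibitors, while *HEXIM1*, an inhibitor of P-TEFb, is a usual marker of exposure.

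The libraries held 15759148 to 27335220 reads, those of the inhibited cells 15759148 to 20669303 after 24 hours and 19288834 to 24678813 after 48 hours. Markers of a glioma line were mixed: *VIM* lay between 17915 and 19727 normalized counts after 24 hours of AZD5153 and between 14454 and 16040 after 48 hours, *CD44* between 7420 and 7603 and then between 6612 and 6789, whereas the oligodendrocyte factor *OLIG2* was at 0 in every library and *PDGFRA* and *SOX10* did not exceed 5.4 and 6.24. The lymphoid markers *CD3D*, *CD3E* and *MS4A1*, the microglial marker *AIF1* and, of 4 endothelial markers, *CDH5* were at 0 in every library. The 4 endothelial markers summed to 68.5 to 92.5 normalized counts at 24 hours and 59.0 to 75.7 at 48 hours in AZD5153 and to 606 to 643 in DMSO at 48 hours. *PECAM1*, one of the 4, had a log2 change of -0.49 in AZD5153 (adjusted p = 0.017). The fibroblast or pericyte markers summed to 18540 to 19250 normalized counts at 24 hours and 24347 to 24549 at 48 hours, the epithelial markers to 1195 to 1304 and 1602 to 1835, and the myeloid markers, mostly reads of *FCGR1A*, to 327 to 361 and 491 to 530. Their part in the results was not tested. The replicates of AZD5153 differed from each other by 2.12 to 5.21 times counting noise (chi-square per degree of freedom), and DMSO at 24 hours replicate 1 stood apart from its replicates (16.8 and 25.6), so that leading counts of the comparison with DMSO are also given without it. In a principal component analysis of the 6 AZD5153 libraries the first component held 47.3% of the variance and separated the times, with scores of -32.8 to -27.8 at 24 hours and 29.2 to 30.2 at 48 hours.

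Between 24 and 48 hours of AZD5153, 4627 of the 15599 genes changed (29.7%). Transcripts of 2472 genes (15.8%) rose and those of 2155 (13.8%) fell (limma on log2(normalized count + 1), Benjamini-Hochberg adjusted p under 0.05). Most changes were small. The median called change was 0.43 upwards and -0.41 downwards on the log2 scale, and 286 genes rose and 287 fell by at least 1, that is 1.83% and 1.84% of those tested, and 1016 (6.51%) and 852 (5.46%) by at least 0.5. The median standard error of a log2 change was 0.115. The 3 libraries at 48 hours lay above all 3 at 24 hours for 3874 genes (24.8%) and below them for 3496 (22.4%). Scaling the libraries on 7 genes taken as stable in place of the deposited size factors shifted the median change of all genes from 0.01 to 0.09 and gave 3406 genes higher and 1372 lower, that is 71.3% of the calls higher against 53.4%, so that small decreases depend on the scaling.

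**Figure D1:**
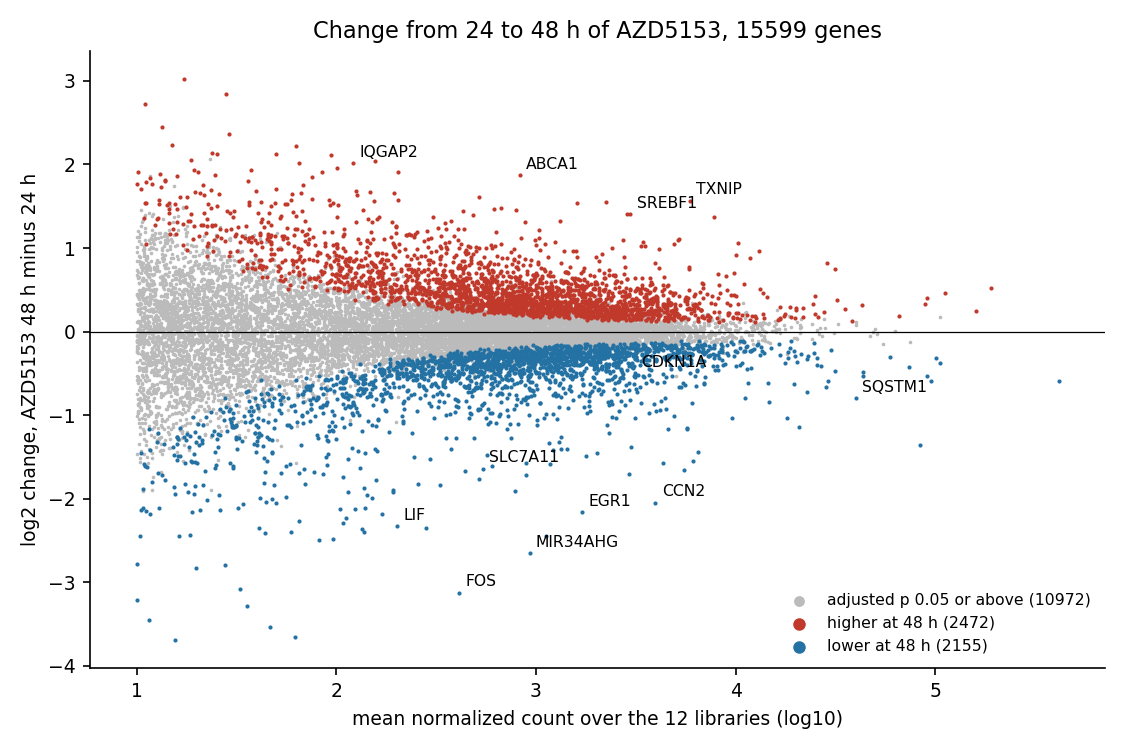
Log2 change between 48 and 24 hours of AZD5153 (vertical) against the log10 mean normalized count over 12 libraries (horizontal) for 15599 genes, with the 2472 that rose and the 2155 that fell coloured. The decreases of *FOS*, *MIR34AHG*, *EGR1* and *CCN2* reached beyond -2, farther than the increases of abundant genes such as *TXNIP*.

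DMSO-treated cells changed over the same day as well. Between 24 and 48 hours in DMSO 2551 genes (16.4%) rose and 3015 (19.3%) fell. Of the genes that rose in AZD5153, 852 (34.5%, and 33.4% of those that rose in DMSO) also rose in DMSO and 390 (15.8%) fell there. Of those that fell in AZD5153, 882 (40.9%, and 29.3% of those that fell in DMSO) also fell in DMSO and 200 (9.28%) rose there. Across the genes tested, which are not independent, the 2 changes had a Pearson r of 0.19 and a Spearman rho of 0.20. The difference between the changes passed its own test for 3829 genes, with 2254 (14.4%) higher and 1575 (10.1%) lower in AZD5153 than in DMSO, and for 2724 and 1803 without DMSO at 24 hours replicate 1. Scaling to equal totals turned the share of higher calls in DMSO from 45.8% to 56.2% and that of the difference from 58.9% to 48.2%, and scaling on stable genes gave 70.8% for the difference. Among the genes that rose in AZD5153 the test of the difference called 1080 (43.7%) higher, and among those that fell it called 774 (35.9%) lower. The test of the difference contains the change in the same AZD5153 libraries. Genes chosen by that change therefore lean the same way in it, and no conclusion is drawn from these shares.

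**Figure D2:**
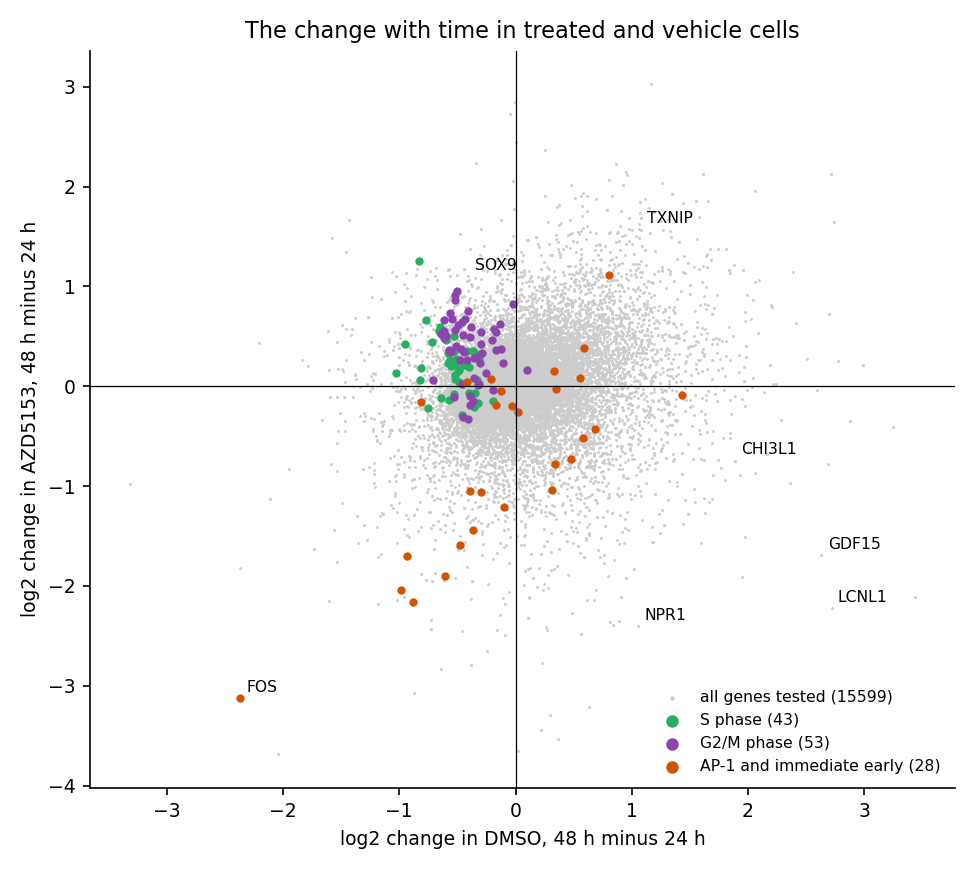
Log2 change between 48 and 24 hours in AZD5153 (vertical) against that in DMSO (horizontal) for 15599 genes, with S phase, G2/M phase and AP-1 or immediate early genes coloured. S and G2/M genes lay mostly left of 0 in DMSO and above 0 in AZD5153, and *FOS* was low on both axes.

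Among the deepest losses with longer exposure were those of immediate early genes, which growth factor signalling switches on within minutes and whose products include the *FOS* and *JUN* subunits of the AP-1 transcription factor. Of the 28 genes of this list that were tested, 13 fell, 2 rose and 13 did not pass (46.4% and 7.1%, against 13.8% and 15.8% of all genes), and their median change was -0.47 against 0.01 for all genes tested. In DMSO 10 fell and 8 rose, with a median of -0.11 (all genes 19.3% and 16.4%), and the difference was lower in AZD5153 for 16 and higher for 3 (all genes 10.1% and 14.4%), the 3 becoming 6 without DMSO at 24 hours replicate 1. Their median against DMSO was 0.87 at 24 hours and 0.05 at 48 hours. *FOS* (ENSG00000170345, chromosome 14, 75278826 to 75282230 on GRCh38) had 1247, 1281 and 1115 normalized counts at 24 hours and 127, 162 and 129 at 48 hours. The groups were far apart, and the change was -3.12 ± 0.13 (log2, SE), with an adjusted p of 2.8e-10. *FOS* also had a change of -2.37 in DMSO, from 221, 247 and 263 at 24 hours to 44.1, 41.7 and 54.0 at 48 hours, and the difference between the treatments was -0.75 (adjusted p = 0.0086). At both times *FOS* stayed above DMSO, by 2.31 and 1.56 on the log2 scale. For *EGR1* (ENSG00000120738, chromosome 5, 138465479 to 138469303 on GRCh38), a zinc finger factor induced by mitogens, the libraries gave 4079, 4237 and 4294 at 24 hours and 1021, 932 and 866 at 48 hours, a change of -2.16 ± 0.10 (log2, SE). Its libraries did not overlap between the times either. *FOSL1*, the AP-1 subunit FRA1, had 10724, 10744 and 10065 at 24 hours and 3821, 3968 and 3870.0 at 48 hours and fell by 1.43 on the log2 scale.

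The 2 members that rose were *JUND* and *KLF4*. *JUND*, a *JUN* family subunit that restrains proliferation in many cells, had 4346, 4625 and 4521 at 24 hours and 9509.5, 10201 and 9482 at 48 hours, and its change of 1.11 ± 0.14 (log2, SE) had an adjusted p of 3.3e-05. All *JUND* libraries at 48 hours exceeded those at 24 hours, and in DMSO it went from 1650.1, 2728 and 2987 at 24 hours to 4256, 4147 and 4090.1 at 48 hours, replicate 1 at 24 hours being the lowest. *KLF4*, a factor linked to cell cycle exit, changed by 0.38, and its call was lost without AZD5153 at 24 hours replicate 2 or at 48 hours replicate 1 (adjusted p up to 0.056 over the alternatives). *MYC*, the growth-promoting transcription factor most associated with BET inhibitors, had 2482, 2542 and 2186 at 24 hours and 1196, 1182 and 1098 at 48 hours and fell by 1.05 on the log2 scale (adjusted p = 1.2e-07). In DMSO *MYC* changed by -0.39. Against DMSO it stood at 1.47 at 24 hours and at 0.82 at 48 hours.

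Targets of YAP/TEAD and TGF-beta signalling, which couple cell tension and TGF-beta receptors to transcription, also fell in number: 18 of 34 fell and 4 rose (52.9% and 11.8%, against 13.8% and 15.8% of all genes), and the median was -0.31. In DMSO 15 fell and 5 rose (median -0.15), against 19.3% and 16.4% of all genes. By the difference 11 were lower and 4 higher in AZD5153, against 10.1% and 14.4% of all genes. *CCN2*, the connective tissue growth factor (ENSG00000118523, chromosome 6, 131948176 to 131951372 on GRCh38), had 10938, 10680.0 and 10554 normalized counts at 24 hours and 2579, 2574 and 2646 at 48 hours. Its change of -2.04 ± 0.05 (log2, SE) had an adjusted p of 6.4e-13, and the change in DMSO was -0.98, so that the difference was -1.06. *CCN1*, the related CYR61, had 5658, 5603 and 5034 at 24 hours and 1617, 1687 and 1709 at 48 hours. *SMAD7*, an inhibitor of the TGF-beta receptor that the pathway itself induces, had 194, 202 and 182 at 24 hours and 41.0, 31.5 and 56.5 at 48 hours, a change of -2.18. The decreases of *CCN2*, *CCN1* and *SMAD7* separated the libraries completely. *ANKRD1*, a cardiac ankyrin repeat protein often used as a YAP readout, changed by -2.80 (-1.61 with a pseudocount of 10). Against this direction *TGFB2*, a TGF-beta ligand, changed by 0.56 and *TPM1*, a tropomyosin, by 0.89; the call of *TGFB2* was lost without AZD5153 at 24 hours replicate 1 or at 48 hours replicate 1 (adjusted p up to 0.12).

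Many genes of the extracellular matrix fell as well. Of 59 tested, 28 fell, 12 rose and 19 did not pass (47.5% and 20.3%, against 13.8% and 15.8% of all genes), with a median of -0.38. In DMSO 14 fell and 18 rose (median 0.03; all genes 19.3% and 16.4%), and the difference was lower in AZD5153 for 25 and higher for 8 (all genes 10.1% and 14.4%). The median level against DMSO was -0.95 at 24 hours and -1.66 at 48 hours. *COL6A3*, the long chain of collagen VI, had 49432, 49514 and 47668 at 24 hours and 19462, 18519 and 19436 at 48 hours. It changed by -1.35 ± 0.04 (log2, SE) in AZD5153 and by 0.05 in DMSO, and the difference of -1.40 had an adjusted p of 5.0e-10. The other chains of collagen VI fell too, *COL6A1* by 1.14 and *COL6A2* by 1.03. *FN1*, fibronectin, had 256750, 256650 and 263420 at 24 hours and 172050, 167800 and 175460 at 48 hours and changed by -0.59 (-1.63 with quantile normalization), against 0.38 in DMSO. The largest decreases that met the naming rule were *MMP1*, a collagenase, at -2.12, and *COL16A1*, a fibril-associated collagen, at -2.12. *MMP1* had 14.7, 17.4 and 13.5 at 24 hours and 4.56, 1.09 and 3.42 at 48 hours, reached the minimum mean through DMSO (248, 216 and 282 at 24 hours and 250.4, 223 and 218 at 48 hours), and changed by -0.96 with a pseudocount of 10. Not all collagens moved this way. *COL1A2*, a chain of collagen I, had 3258, 3209 and 3160.3 at 24 hours and 5788, 5948 and 5991 at 48 hours, a change of 0.88 ± 0.05 (log2, SE), and *COL11A1*, a minor fibrillar collagen, changed by 0.94. Of the 5 fibroblast or pericyte markers, *COL1A1* and *COL1A2* were higher and *LUM* and *RGS5* lower at 48 hours by the test, *DCN* did not pass, and none was at 0 in all libraries.

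Inflammatory and growth factor feedback genes were also among those that fell. Of 25 NF-kB and secreted inflammatory genes 8 fell, 2 rose and 15 did not pass (median -0.28; 32.0% and 8.0%, against 13.8% and 15.8% of all genes). In DMSO 6 fell and 2 rose (median -0.19; all genes 19.3% and 16.4%), and the difference did not pass for 18 of the 25. *LIF*, a cytokine of the IL-6 family, had 60.3, 60.4 and 60.0 at 24 hours and 5.47, 16.3 and 15.4 at 48 hours, and *ICAM1*, a leukocyte adhesion molecule, 38.9, 33.8 and 19.6 at 24 hours and 2.74, 9.78 and 4.28 at 48 hours. Both genes were separate between the times, with changes of -2.32 and -2.36. In DMSO *ICAM1* changed by 0.81, which made the difference -3.17. *TRAF1*, an adaptor of TNF receptors, changed by 0.79 and *TNFAIP2*, a TNF-induced protein, by 0.57, both upwards. Among 30 growth factor receptors and MAPK feedback genes 14 fell and 5 rose with a median of -0.23 (46.7% and 16.7%, against 13.8% and 15.8% of all genes), in DMSO 8 fell and 10 rose, and the scaling on stable genes left 9 that fell. *SPRY4*, a feedback inhibitor of RAS signalling, had 799, 826 and 895 at 24 hours and 391, 372 and 362 at 48 hours, and *AXL*, a receptor tyrosine kinase, 8502, 8225 and 7964 at 24 hours and 3673, 3754 and 3618 at 48 hours. *INSR*, the insulin receptor, changed by 0.72 and *DDR1*, a collagen receptor, by 0.99.

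Cell cycle genes moved opposite to the immediate early genes. Of 43 S phase genes, whose products replicate DNA, 22 rose, 2 fell and 19 did not pass (51.2% higher against 15.8% of all genes), with a median of 0.21. Of 53 G2/M genes, which build the spindle and drive mitosis, 37 rose and 2 fell (69.8% and 3.8%, against 15.8% and 13.8% of all genes), with a median of 0.37. In DMSO no S phase gene rose and 41 fell (median -0.52), and no G2/M gene rose and 44 fell (median -0.41). The difference was higher in AZD5153 for 36 S phase and 46 G2/M genes and lower for none of either list, and without DMSO at 24 hours replicate 1 for 37 and 47. Over all genes 16.4% rose and 19.3% fell in DMSO, and the difference was higher for 14.4% and lower for 10.1%. At an unadjusted p under 0.05, limma put 0 S phase and 1 G2/M gene higher in DMSO and 0 of either with a lower difference; edgeR called 0, 1 and 0, and DESeq2 0 in each. The lists stayed below DMSO at both times: the S phase median was -1.50 at 24 hours and -0.76 at 48 hours, and the G2/M median -1.83 and -1.0. In bulk RNA, fewer cells in a phase and less RNA per cell cannot be told apart.

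Promoters are printed for 5 genes as examples and not as a test. *TOP2A*, *CDK1* and *KIF11* rose and hold CHR and CCAAT letters. *E2F2* rose and holds E2F letters and neither of the others, and *IL11*, a cytokine gene, fell. The sequences are the 250 bases before the transcription start from RefSeq on GRCh38.p14, 5′ to 3′ on the strand of the gene, with the matches in capitals: CHR (TTTGAA, a cell cycle homology region bound by repressor complexes), CCAAT box (CCAAT), E2F (TTTCCCGC or TTTGGCGC) and AP-1 (TGANTCA), each on either strand. *KIF11* and *IL11* were chosen after their values were seen.
TOP2A, chr17:40417897-40418146, - strand: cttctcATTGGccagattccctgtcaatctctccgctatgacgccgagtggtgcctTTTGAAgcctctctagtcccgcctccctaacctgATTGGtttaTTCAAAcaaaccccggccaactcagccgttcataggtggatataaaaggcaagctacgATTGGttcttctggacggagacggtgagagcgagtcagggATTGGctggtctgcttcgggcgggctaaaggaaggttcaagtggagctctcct
CDK1, chr10:60778081-60778330, + strand: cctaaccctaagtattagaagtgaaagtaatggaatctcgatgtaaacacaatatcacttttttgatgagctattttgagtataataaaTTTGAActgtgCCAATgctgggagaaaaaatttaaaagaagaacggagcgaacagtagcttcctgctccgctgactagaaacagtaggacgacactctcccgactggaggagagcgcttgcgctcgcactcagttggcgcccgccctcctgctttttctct
KIF11, chr10:92592880-92593129, + strand: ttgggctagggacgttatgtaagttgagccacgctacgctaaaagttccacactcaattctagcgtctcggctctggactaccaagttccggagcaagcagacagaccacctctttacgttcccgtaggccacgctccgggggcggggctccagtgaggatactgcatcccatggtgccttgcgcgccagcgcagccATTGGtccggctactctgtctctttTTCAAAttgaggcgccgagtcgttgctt
E2F2, chr1:23531234-23531483, - strand: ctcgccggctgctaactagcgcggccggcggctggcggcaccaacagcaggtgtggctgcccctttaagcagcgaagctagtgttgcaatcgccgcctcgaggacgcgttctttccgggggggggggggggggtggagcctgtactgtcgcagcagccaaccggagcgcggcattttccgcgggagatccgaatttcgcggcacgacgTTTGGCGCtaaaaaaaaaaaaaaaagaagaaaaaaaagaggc
IL11, chr19:55370464-55370713, - strand: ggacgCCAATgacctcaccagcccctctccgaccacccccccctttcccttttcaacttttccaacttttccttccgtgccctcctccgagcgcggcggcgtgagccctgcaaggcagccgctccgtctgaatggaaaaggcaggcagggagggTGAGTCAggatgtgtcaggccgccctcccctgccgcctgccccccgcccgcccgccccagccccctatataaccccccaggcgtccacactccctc

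*TOP2A* held CHR matches at -194 and -151 and CCAAT boxes at -244, -160, -93 and -53 from the start, counted to the first base of the match. *CDK1* had a CHR at -161 and a CCAAT box at -150, and *KIF11* a CHR at -28 and a CCAAT box at -53. In *E2F2* the E2F letters TTTGGCGC stood at -42, and in *IL11* the AP-1 letters TGAGTCA at -96. *IL11* had 300.3, 242 and 214 at 24 hours and 66.6, 70.6 and 65.0 at 48 hours, a change of -1.87, and its libraries did not overlap between the times. Of the genes tested, 11179 had a RefSeq promoter of 300 bases, from 250 before to 50 after the start. CHR letters were in 9.73% of these and in 68.2% of the 44 G2/M promoters, CCAAT boxes in 36.6% and in 68.2%, and E2F letters in 3.62% and in 42.4% of the 33 S phase promoters. Over all genes that rose or fell the shares moved far less: CHR 10.8% and 9.96%, E2F 4.02% and 2.69%, SREBP (TCACNCCAC) 1.53% and 1.16% against 1.13% of all. AP-1 letters were in 4.68% of all promoters, in 3.31% of those of genes that rose, in 6.42% of those that fell and in 12.5% (20 of 160) of those that fell by at least 1. In that last class CHR letters were in 13.8% (22 of 160) and E2F letters in 1.25%, and among promoters of genes that rose by at least 1 in 9.63% and 2.14%. Of the promoters of genes that rose by at least 1, 5.35% (10 of 187) held AP-1 letters. Of the AP-1 and immediate early list itself 4.55% of 22 promoters held them. Matches are descriptions of letters, not binding sites.

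*TOP2A*, the topoisomerase that disentangles chromosomes (ENSG00000131747, chromosome 17, 40388525 to 40417896 on GRCh38), had 2601, 2779.8 and 2982 normalized counts at 24 hours and 5028, 5326 and 5387 at 48 hours. DMSO libraries held 20881, 18823 and 17259 at 24 hours and 13106, 13007 and 13538 at 48 hours. The times separated in both treatments, upwards in AZD5153 and downwards in DMSO, and all AZD5153 libraries stayed below all DMSO libraries. The change was 0.91 ± 0.06 (log2, SE) in AZD5153 (adjusted p = 6.0e-08) and -0.52 in DMSO. *CDK1*, the kinase that starts mitosis, had 432, 414 and 525 at 24 hours and 895, 844 and 916 at 48 hours, a change of 0.96 ± 0.08 (log2, SE). *KIF11*, the kinesin that separates spindle poles, had 755, 798 and 837 at 24 hours and 1261, 1310.3 and 1236 at 48 hours and rose by 0.67. *EXO1*, a DNA exonuclease of replication and repair, rose by 0.67, and *E2F8*, an atypical E2F repressor, went from 17.4, 21.5 and 25.7 at 24 hours to 60.2, 53.2 and 44.5 at 48 hours. No library of these genes at 48 hours was as low as one at 24 hours. *MKI67*, the proliferation antigen Ki-67, changed by 0.33 in AZD5153 and by -0.29 in DMSO. The members that fell were *NASP*, a histone chaperone, at -0.21, *POLR1B*, a subunit of RNA polymerase I, at -0.17, *TUBB4B*, a tubulin, at -0.33, and *ANP32E*, a histone H2A.Z chaperone, at -0.31; scaling on stable genes left *NASP*, *POLR1B* and *TUBB4B* uncalled (adjusted p 0.12, 0.27 and 0.15).

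Among the genes that control entry into S phase, increases and decreases were mixed. Of 31 G1 cyclins, CDKs, E2F and RB family genes 14 rose, 5 fell and 12 did not pass (45.2% higher against 15.8% of all genes, and 16.1% lower against 13.8%), with a median of 0.01. In DMSO none rose by limma and 16 fell (median -0.29), with 2 higher at an unadjusted p under 0.05 and 1 each called by edgeR and DESeq2. The difference was higher in AZD5153 for 14 and lower for 3, against 14.4% and 10.1% of all genes. In DMSO 16.4% of all genes rose and 19.3% fell. *E2F2*, an activator E2F, had means of 24.2 ± 4.62 at 24 hours and 44.9 ± 10.7 at 48 hours (SD, n = 3) and rose by 0.85, its libraries not overlapping. *E2F1*, the founding member, changed by 0.32 with an adjusted p of 0.037, which did not hold in 10 of 18 alternatives (adjusted p 0.0013 to 0.13), among them each omission of an AZD5153 library. *CCND1*, cyclin D1, had 19692, 19891 and 19400.0 at 24 hours and 11235, 11281 and 11563 at 48 hours and fell by 0.79 on the log2 scale. *FOXM1*, an activator of G2/M genes, fell by 0.69; it overlaps *RHNO1* on the opposite strand, and without a stated strand setting the reads of both cannot be told apart. *CDK6*, the partner of cyclin D1, changed by -0.38. *CDKN1A*, the CDK inhibitor p21, had 7095, 7193 and 6638 normalized counts at 24 hours and 5059, 4962 and 4780.4 at 48 hours. It fell by 0.50 (adjusted p = 0.0018) and in DMSO held 209.7, 289.7 and 266 at 24 hours and 344, 289.9 and 271 at 48 hours, so that it stayed at 4.78 against DMSO at 24 hours and at 4.03 at 48 hours. *CDKN2A*, the INK4 and ARF locus, changed by -0.31 (adjusted p = 0.18) and did not pass.

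Targets of p53, among them *CDKN1A*, were mixed in AZD5153. Of 32 tested 5 rose and 7 fell with a median of -0.12 (15.6% and 21.9%, against 15.8% and 13.8% of all genes). Without AZD5153 at 24 hours replicate 2, at 24 hours replicate 3 or at 48 hours replicate 3, 3 rose. In DMSO 9 rose and 6 fell with a median of 0.10, against 16.4% and 19.3% of all genes. The difference was lower in AZD5153 for 7 and higher for 1, against 10.1% and 14.4% of all genes. *BBC3*, the BH3 protein PUMA, changed by 0.92, although its call was lost without AZD5153 at 24 hours replicate 1, at 24 hours replicate 3 or at 48 hours replicate 3. *TP53INP1*, a stress protein, rose by 0.59 in AZD5153 and by 1.05 in DMSO, and the difference of -0.45 passed (adjusted p = 0.027). *TP53INP1* and *MDM2* overlap lower expressed genes on the opposite strand. *PLK2*, a polo-like kinase, fell by 0.85 and *AEN*, an apoptosis nuclease, by 0.53. In DMSO they changed by -0.62 and -0.86, and neither difference passed. *MDM2*, the ligase of p53, changed by -0.28 (adjusted p = 0.023), which 6 of 18 alternatives did not call (adjusted p up to 0.098). *GDF15*, a secreted stress cytokine, had 25.5, 30.7 and 15.9 at 24 hours and 7.29, 8.69 and 4.28 at 48 hours in AZD5153 and 13.5, 42.0 and 49.0 at 24 hours and 211, 181 and 192 at 48 hours in DMSO, the time changes being -1.69 (-1.01 with a pseudocount of 10) and 2.63.

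**Figure D3:**
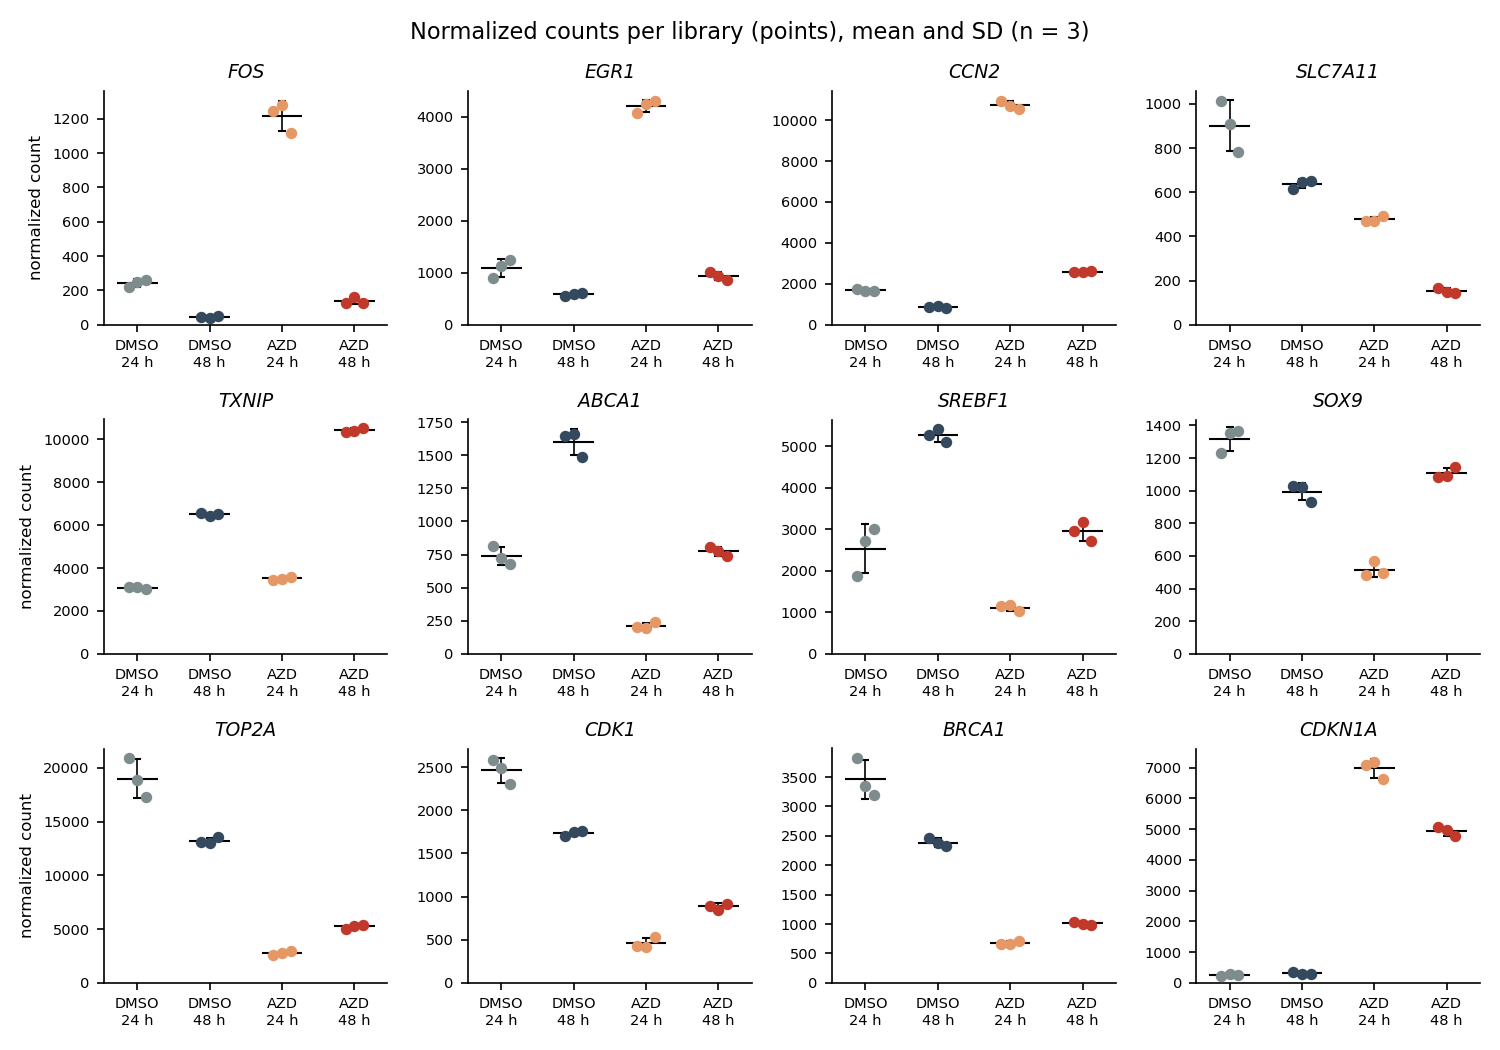
Normalized counts of 12 genes (vertical, linear axis from 0) in the 4 groups, with a point for each library and the mean and SD of 3 libraries. *TOP2A*, *CDK1* and *BRCA1* were higher at 48 than at 24 hours in AZD5153 and lower in DMSO, and *FOS*, *EGR1*, *CCN2* and *SLC7A11* were lower at 48 hours in AZD5153.

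Of the DNA repair genes, the group on which the study centred, part of those of homologous recombination rose. Of 56 homologous recombination and Fanconi anemia genes 18 rose, 3 fell and 35 did not pass (32.1% and 5.4%, against 15.8% and 13.8% of all genes), with a median of 0.16. In DMSO 1 rose and 33 fell (median -0.39; all genes 16.4% and 19.3%). The difference was higher in AZD5153 for 33 and lower for 1 (all genes 14.4% and 10.1%). Against DMSO their median was -1.25 at 24 hours and -0.74 at 48 hours. *BRCA1*, which loads the recombinase onto broken DNA, had 664, 663 and 716 normalized counts at 24 hours and 1042, 1005 and 981 at 48 hours, and DMSO libraries held 3828, 3356 and 3201 at 24 hours and 2462, 2372 and 2319 at 48 hours. Its change was 0.57 ± 0.07 (log2, SE) in AZD5153 and -0.53 in DMSO, the former with an adjusted p of 1.4e-05. Neither treatment's libraries overlapped between the times. *RMI2*, a subunit of the *BLM* dissolvasome, rose by 1.40, and *CHEK2*, a damage checkpoint kinase, by 0.71; *RMI2* overlaps *SOCS1* and *CHEK2* overlaps *HSCB*, whose reads may be shared. *BRCA1* overlaps an unnamed gene on the same strand and *NBR2* on the opposite strand, and *LIG3*, *RPA3*, *NBN*, *XRCC1* and, with a far more abundant neighbour, *XRCC4* also overlap expressed genes, so that these values are uncertain in the same way. *RPA3*, the small subunit of the single-strand binding protein, changed by -0.35 and *NBN*, of the *MRE11* complex, by -0.35. Of 25 end joining genes 3 rose and 3 fell (median -0.03), 12.0% each way and so not above the 15.8% and 13.8% of all genes. *POLQ*, the polymerase of microhomology end joining, had 379, 372 and 362 at 24 hours and 579.9, 604 and 495 at 48 hours and rose by 0.59, whereas *LIG3*, a DNA ligase, had 479, 473 and 526 at 24 hours and 325, 302 and 306 at 48 hours and fell by 0.66. *XRCC1* (0.25, adjusted p = 0.069) and *XRCC4* (-0.12, adjusted p = 0.69), which scaffold the ligases *LIG3* and *LIG4*, did not pass. Several of these genes were singled out by the study in these same samples, so that their direction is not independent evidence.

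Several genes of lipid and glucose handling rose, some of them in DMSO as well. *TXNIP*, an inhibitor of thioredoxin and of glucose uptake that senses glucose (ENSG00000265972, chromosome 1, 145992435 to 145996579 on GRCh38), had 3443, 3511 and 3599.7 normalized counts at 24 hours and 10364, 10374 and 10553 at 48 hours. It rose by 1.57 ± 0.04 (log2, SE) with an adjusted p of 7.4e-13, and in DMSO it went from 3097, 3133 and 3019 at 24 hours to 6565, 6442 and 6523 at 48 hours, which left a difference of 0.49. *ABCA1*, the exporter of cholesterol (ENSG00000165029, chromosome 9, 104781006 to 104928155 on GRCh38), had 199.8, 196 and 237 at 24 hours and 805, 778 and 736 at 48 hours, a change of 1.87 ± 0.09 (log2, SE). In DMSO *ABCA1* rose by 1.11, and the difference of 0.76 passed (adjusted p = 0.00055). Against DMSO it stood at -1.81 at 24 hours and at -1.05 at 48 hours. The libraries of both times were separate for *TXNIP* and *ABCA1*. *SREBF1*, the master regulator of fatty acid synthesis, had 1149, 1172 and 1021 at 24 hours and 2969, 3175 and 2724 at 48 hours and rose by 1.41, against 1.09 in DMSO. The difference of 0.32 did not pass (adjusted p = 0.2), but without DMSO at 24 hours replicate 1 it was 0.52 and passed (adjusted p = 4.11e-05). *SREBF1* overlaps *RAI1*. Of 35 cholesterol synthesis and SREBP genes 16 rose, 4 fell and 15 did not pass (45.7% and 11.4%, against 15.8% and 13.8% of all genes), with a median of 0.20, against 11 and 9 in DMSO (median 0.03; all genes 16.4% and 19.3%). The members *SCD*, a desaturase, and *FADS2*, another, rose by 0.83 and 1.37, *FADS2* overlapping *FEN1* and *FADS1*. *PMVK* and *FDPS*, enzymes of the mevalonate pathway, changed by -0.43 and -0.30, the call of *FDPS* being lost without AZD5153 at 48 hours replicate 1; *FDPS* also overlaps a lower expressed antisense gene.

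Of 30 glycolysis and glucose transport genes 11 rose and 5 fell (median 0.07; 36.7% and 16.7%, against 15.8% and 13.8% of all genes), and without AZD5153 at 24 hours replicate 3 or without 48 hours replicate 2 only 7 rose. *SLC2A1*, the glucose transporter GLUT1, had 1126, 1184 and 1127 at 24 hours and 1879, 1809 and 1906 at 48 hours, whereas *SLC2A3*, the transporter GLUT3, had 1399.8, 1371 and 1448 at 24 hours and 855, 849.7 and 917 at 48 hours. They moved in opposite directions, 0.70 and -0.69. *ALDOA*, an aldolase, changed by -0.78, a call lost without AZD5153 at 24 hours replicate 3, 48 hours replicate 1 or 48 hours replicate 3; it overlaps an unnamed gene on the same strand and had a mean of only 118 normalized counts over the 12 libraries, so that its value is uncertain. Among 26 hypoxia genes 8 rose and 7 fell (30.8% and 26.9%, against 15.8% and 13.8% of all genes). *EPAS1*, the factor HIF-2α, rose by 0.77, and *BHLHE40*, a repressor, and *ADM*, adrenomedullin, fell by 1.60 and 0.84. Of 30 NRF2 antioxidant genes 6 rose and 7 fell (20.0% and 23.3%, the former near the 15.8% of all genes). *AKR1C3*, an aldo-keto reductase, rose by 0.94, and *UGDH*, which makes glucuronic acid, fell by 0.61.

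Of 36 unfolded protein and *ATF4* genes, which cells use to adapt to misfolded protein and to a lack of amino acids, 15 fell, 2 rose and 19 did not pass (median -0.19; 41.7% and 5.6%, against 13.8% and 15.8% of all genes). In DMSO 11 fell and 6 rose (median -0.06), against 19.3% and 16.4% of all genes. By the difference 12 were lower and 1 higher in AZD5153, against 10.1% and 14.4% of all genes. *SLC7A11*, the cystine transporter, had 471, 472 and 491 normalized counts at 24 hours and 166, 148 and 145 at 48 hours. Its libraries separated by time, and the change of -1.64 ± 0.09 (log2, SE) had an adjusted p of 8.0e-09. *SLC7A5*, the leucine transporter, had 5213, 5385 and 5078 at 24 hours and 1946, 2019 and 2036 at 48 hours and fell by 1.38. *ATF4* itself changed by -0.40. *DDIT4*, an inhibitor of mTORC1, rose by 0.64, with a change of 1.35 in DMSO, and *ALDH1L2*, a mitochondrial folate enzyme, rose by 0.33, though it overlaps a far more abundant gene on the opposite strand.

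Genes of self-digestion moved upwards in part. Of 54 autophagy genes 18 rose, 4 fell and 32 did not pass (median 0.12; 33.3% and 7.4%, against 15.8% and 13.8% of all genes), and of 56 lysosome and V-ATPase genes 18 rose and 4 fell (median 0.09; 32.1% and 7.1%). In DMSO 12 autophagy genes rose and 11 fell, and 21 lysosome genes rose and 5 fell (all genes 16.4% and 19.3%). The difference was higher in AZD5153 for 10 autophagy and 8 lysosome genes and lower for 5 and 10, beside 14.4% higher and 10.1% lower over all genes. *TP53INP2*, which takes part in autophagosome formation, had 319, 269 and 313 at 24 hours and 705, 720.4 and 688 at 48 hours, a change of 1.23, but it overlaps a more abundant gene on the opposite strand. *ULK2*, a kinase that starts autophagy, rose by 0.84, and *MAP1LC3B*, the LC3 protein of the autophagosome membrane, by 0.34, though it overlaps *FBXO31*. *SQSTM1*, the autophagy receptor p62, had 83974, 84488 and 75631 at 24 hours and 47070.0, 46019 and 47147 at 48 hours; it fell by 0.80 in AZD5153 while the DMSO libraries went from 10578, 13187 and 14242 at 24 hours to 19887, 19614 and 18199 at 48 hours, a difference of -1.41 (adjusted p = 8.3e-07), and it overlaps *MGAT4B*. *ATG4A*, a protease of the LC3 family (0.12, adjusted p = 0.41), and *SIRT1*, a deacetylase (-0.12, adjusted p = 0.28), did not pass. *MTOR* changed by 0.14 (adjusted p = 0.032) and was not called in 11 of 18 alternatives (adjusted p 0.0042 to 0.09). Of the lysosomal proteins, *PSAP*, the precursor of the saposins, rose by 0.75 and *IDS*, iduronate sulfatase, by 0.62, and the cathepsins *CTSS* and *CTSL* fell by 1.98 and 0.71, *CTSS* from a low level, 16.1, 16.4 and 20.8 at 24 hours and 3.65, 3.26 and 4.28 at 48 hours, and with a change of -1.01 when the pseudocount was 10.

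Genes that make ribosomes fell in number in both treatments, and most proteasome and heat shock genes did not pass in AZD5153. Of 42 nucleolus and ribosome assembly genes none rose and 25 fell with a median of -0.25 (59.5% lower, against 13.8% of all genes). By limma at an unadjusted p under 0.05, by edgeR and by DESeq2 also 0 were higher, and 15.8% of all genes rose. In DMSO 35 fell with a median of -0.40, against 19.3% of all genes. The difference was higher in AZD5153 for 11 and lower for 1, against 14.4% and 10.1% of all genes. *RRS1* and *GAR1*, factors of ribosome and small nucleolar RNP assembly, changed by -0.77 and -0.67. Of 34 proteasome genes 9 fell, 3 rose and 22 did not pass (26.5% and 8.8%, against 13.8% and 15.8% of all genes), 27 fell in DMSO (all genes 19.3%), and the difference was higher for 14 (all genes 14.4%). *PSMD14*, a deubiquitinase of the proteasome lid, had 4091, 4075 and 4169 at 24 hours and 3199.6, 3009.6 and 3152 at 48 hours and fell by 0.40, and *PSMB7*, a catalytic subunit, rose by 0.25. Scaling on stable genes left 16 of the nucleolus genes and 2 of the proteasome genes as lower. Of 19 heat shock genes 7 fell, 1 rose and 11 did not pass in AZD5153 (median -0.11; 36.8% and 5.3%, against 13.8% and 15.8% of all genes), 14 fell in DMSO (median -0.49; all genes 19.3%), and 12 were higher by the difference (all genes 14.4%). *HSP90AA1*, the stress-induced HSP90, fell by 0.42, *DNAJB1*, an HSP40 cochaperone, rose by 0.28, and *CRYAB*, a small heat shock protein, fell by 1.74 from low levels (-1.16 with a pseudocount of 10). Of 78 cytosolic ribosomal protein genes 10 rose and 2 fell with a median of 0.02 (12.8% and 2.6%, below the 15.8% and 13.8% of all genes). With the scaling on stable genes 20 rose, and 6 rose without AZD5153 at 48 hours replicate 1 or replicate 3. Of 76 nuclear genes of oxidative phosphorylation 13 rose and 4 fell (median 0.05; 17.1% higher, near the 15.8% of all genes), with *NDUFB5* and *SDHD* higher (0.52 and 0.42) and *NDUFC1* lower (-0.39). *DNAJB1* and *NDUFC1* overlap well expressed genes on the opposite strand. Ribosomal protein and many oxidative phosphorylation genes have processed copies in the genome, and reads could be split with them.

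**Figure D4:**
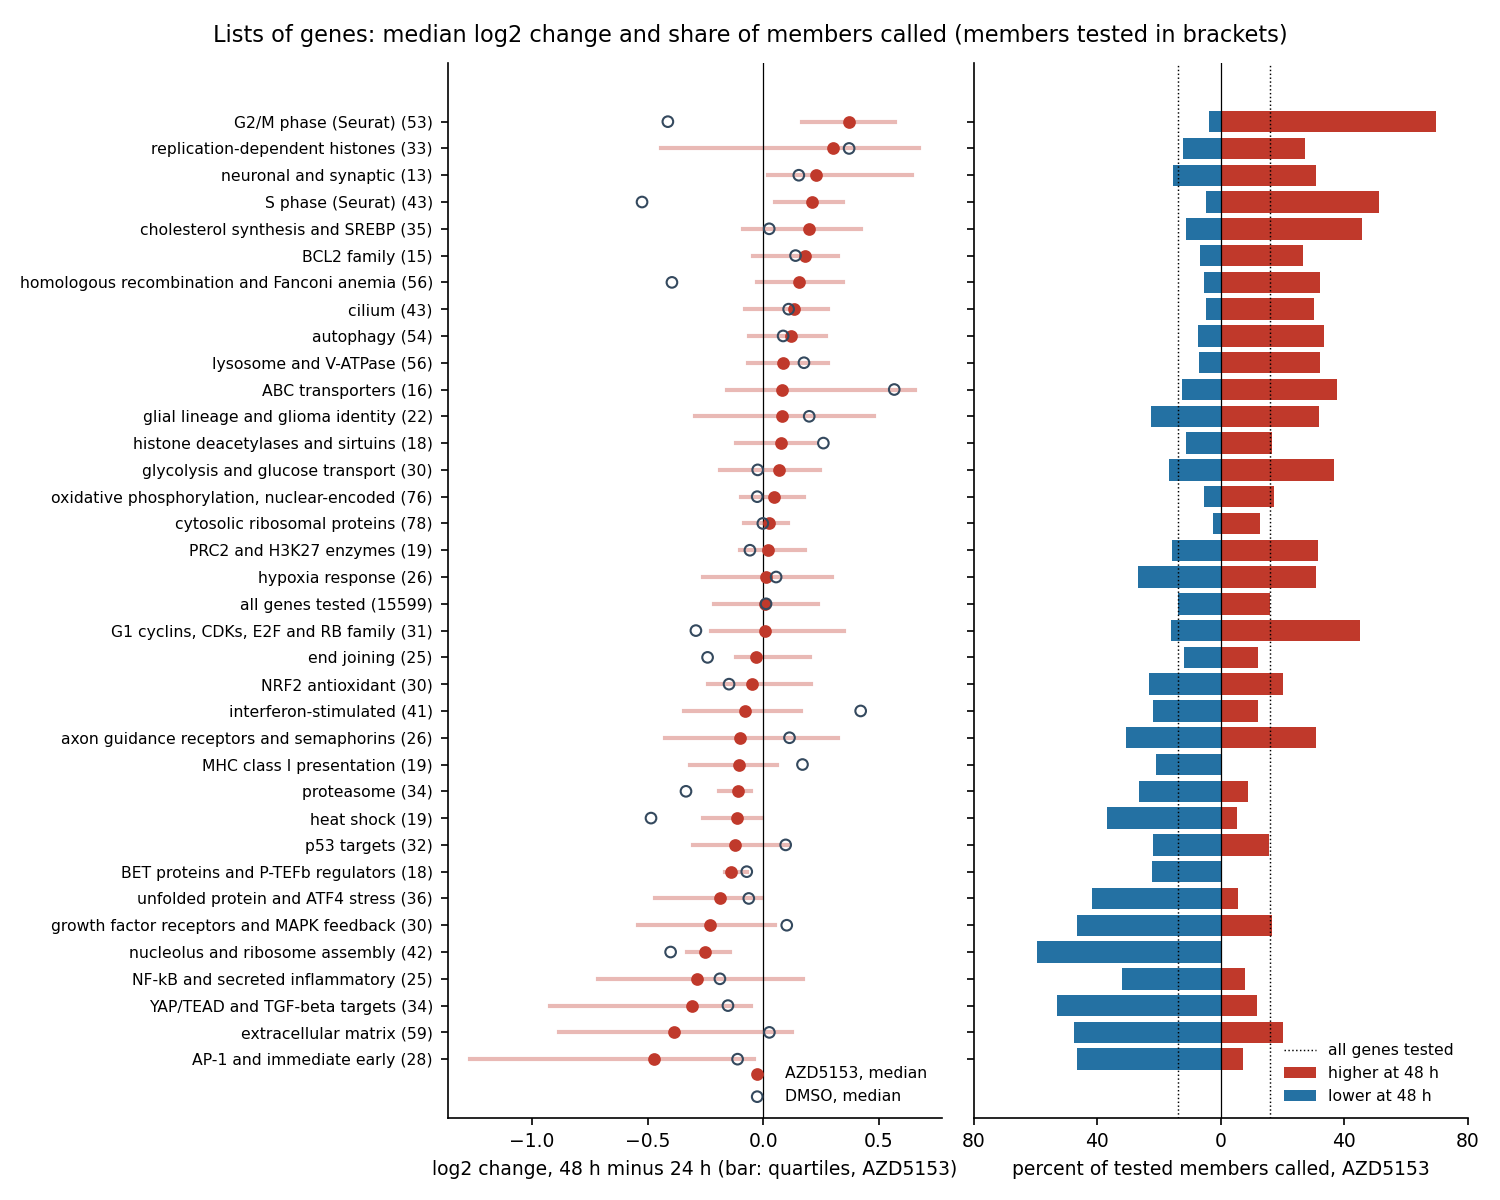
Median log2 change between 48 and 24 hours for each gene list in AZD5153 (filled, bar from lower to upper quartile) and DMSO (open), and at right the percent of members that rose and fell in AZD5153 with dotted lines at 15.8% and 13.8% of all genes tested. G2/M and S phase genes had medians above 0 in AZD5153 and below 0 in DMSO.

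Of 18 BET and P-TEFb regulator genes tested none rose and 4 fell (0.0% and 22.2%, against 15.8% and 13.8% of all genes), with a median of -0.14. The libraries at 48 hours lay wholly below those at 24 hours for 11 of the 18 and above for none, against 22.4% and 24.8% of all genes, and 0 rose also at an unadjusted p under 0.05 by limma and by edgeR and DESeq2. *BRD2* (-0.11, adjusted p = 0.27) and *BRD3* (-0.07, adjusted p = 0.5) did not pass, and *BRD3* overlaps a gene of like level on the opposite strand. *HEXIM1* had 11206, 11187 and 9881 at 24 hours and 11183, 10824 and 11313 at 48 hours. Its change of 0.05 ± 0.06 (log2, SE) did not pass (adjusted p = 0.55), and it stood at 2.17 against DMSO at 24 hours and at 2.05 at 48 hours. *SERPINI1*, a neuroserpin whose transcripts also mark BET inhibition, changed by -0.19 (adjusted p = 0.085) and stood at 3.04 and 1.79 against DMSO; the count tests edgeR and DESeq2 did call its decrease. *ELL2*, an elongation factor, and *CDK13*, a kinase of RNA polymerase II, fell by 0.38 and 0.28. Among chromatin genes, 6 of 19 PRC2 and H3K27 enzyme genes rose and 3 fell (31.6% and 15.8%, against 15.8% and 13.8% of all genes). Without AZD5153 at 24 hours replicate 1, 48 hours replicate 2 or 48 hours replicate 3, 2 to 3 rose. *KAT2B*, an acetyltransferase, changed by 1.07 and *NCOA3*, a coactivator, by -0.26. Of 18 histone deacetylases and sirtuins 3 rose and 2 fell (16.7% and 11.1%, near the 15.8% and 13.8% of all genes), *HDAC5*, with a gene of like level on the opposite strand, at 0.37 and *HDAC9* at -0.61. Of the 67 replication-dependent histone genes 33 were tested. Among these 9 rose and 4 fell with a median of 0.30 (27.3% and 12.1%, against 15.8% and 13.8% of all genes). *H4C8* changed by 0.88 and *H2BC12* by -0.87, and near-identical copies leave the values of this list uncertain. *CDCA7* (-0.13, adjusted p = 0.19), *UHRF1* (-0.12, adjusted p = 0.16) and *HMGA1* (-0.15, adjusted p = 0.29), which act in DNA methylation and chromatin structure, did not pass.

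Of 41 interferon-stimulated genes 18 rose and 4 fell in DMSO (median 0.42; all genes 16.4% and 19.3%), while in AZD5153 5 rose (3 without AZD5153 at 24 hours replicate 2) and 9 fell, 12.2% and 22.0% against 15.8% and 13.8% of all genes (median -0.08, or 0.00 with the scaling on stable genes). The difference was lower in AZD5153 for 15 and higher for 1 (all genes 10.1% and 14.4%). *IFITM2*, an antiviral membrane protein, had 63.0, 60.4 and 71.0 at 24 hours and 16.4, 14.1 and 18.8 at 48 hours in AZD5153 and 233, 228 and 246 at 24 hours and 463, 419 and 487 at 48 hours in DMSO. The treatments moved apart, with a difference of -2.87, though *IFITM2* has close paralogs that can share its reads. *IFI44* fell by 0.86, and *IFIT2*, which overlaps a more abundant gene on the opposite strand, rose by 1.13. Of 19 MHC class I presentation genes none rose and 4 fell in AZD5153 (21.1%, against 13.8% of all genes; median -0.10, 0 higher also at an unadjusted p under 0.05 by limma, edgeR and DESeq2), and 6 rose and 2 fell in DMSO (all genes 16.4% and 19.3%). *PSMB8* and *PSMB9*, subunits of the immunoproteasome that overlap each other, changed by -0.60 and -0.37, the latter being called in 12 of 18 alternatives.

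Of 22 glial lineage and glioma identity genes 7 rose and 5 fell (31.8% and 22.7%, against 15.8% and 13.8% of all genes). *SOX9*, a glial and stem cell factor, had 485, 569 and 496 normalized counts at 24 hours and 1083, 1092 and 1146 at 48 hours and changed by 1.10 ± 0.07 (log2, SE) in AZD5153 and -0.41 in DMSO, the times being separate. *CSPG4*, the proteoglycan NG2, rose by 0.97, and *NES*, nestin, fell by 0.48. *CHI3L1*, a secreted glycoprotein of mesenchymal gliomas, had 772, 816 and 774 at 24 hours and 489.6, 481 and 439 at 48 hours in AZD5153 and 1865, 1942 and 1870.4 at 24 hours and 7037, 7063 and 6950.3 at 48 hours in DMSO. Of 13 neuronal and synaptic genes 4 rose and 2 fell (30.8% and 15.4%, the latter near the 13.8% of all genes), with *CAMK2A* at 1.31, *MAP2* at 0.64 and *SCN2A* at -0.81. Among 26 axon guidance genes 8 rose and 8 fell (30.8% each, against 15.8% and 13.8% of all genes), *UNC5C*, a netrin receptor, at 0.87 and *NTN4*, a netrin, at -0.74. Of 43 cilium genes 13 rose and 2 fell with a median of 0.13 (30.2% and 4.7%, against 15.8% and 13.8% of all genes). *IFT80* was at 0.53 and *KIF7* at -0.65, but *IFT80* overlaps a far more abundant gene on the opposite strand and *KIF7* one of like level, so that the reads may not be theirs. Of 16 ABC transporter genes 6 rose and 2 fell (37.5% and 12.5%, the latter near the 13.8% of all genes), with a median of 0.08. In DMSO 9 rose and 2 fell with a median of 0.57, against 16.4% and 19.3% of all genes. The difference was higher in AZD5153 for 3 and lower for 3, against 14.4% and 10.1% of all genes. *ABCG2*, a multidrug pump, changed by 0.90 and *ABCA8*, a lipid transporter, by -0.50. The call of *ABCA8* was lost in 4 of 18 alternatives, among them omission of AZD5153 at 24 hours replicate 2, 48 hours replicate 2 or 48 hours replicate 3. In the *BCL2* family 4 of 15 rose and 1 fell (26.7% and 6.7%, against 15.8% and 13.8% of all genes). *BCL2L11*, the death protein BIM, was at 0.43, with an expressed gene on the opposite strand, and *MCL1*, a survival protein, at -0.29.

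The 15 largest increases among genes with a mean normalized count of 100 or more over the 12 libraries, a level that some reached only through DMSO, ran from 2.04 to 1.54. *PPL*, a plakin of cell junctions, had 46.9, 41.0 and 68.5 at 24 hours and 208, 205 and 224 at 48 hours, and *VSIR*, the immune checkpoint VISTA, 217, 159 and 158 at 24 hours and 564, 503 and 516 at 48 hours. In DMSO their changes were 1.26 and -0.29, and the differences of 0.78 and 1.87 passed (adjusted p = 0.029 and 0.0054). *CTF1*, the cytokine cardiotrophin, rose by 1.63. The channels *TRPV2* and *TRPM8* rose by 1.61 and 1.56, the latter from 2.68, 6.14 and 6.12 at 24 hours to 12.8, 15.2 and 20.5 at 48 hours in AZD5153 and only by 0.80 with a pseudocount of 10, *PDE1C*, a phosphodiesterase, by 1.55, and *FER1L4*, a transcribed pseudogene, by 1.95. Several of these rose in DMSO as well, *FER1L4* by 2.06, *CTF1* by 1.06, *TRPM8* by 1.00 and *FAXDC2* by 1.31, and their differences from DMSO did not pass (-0.11, 0.57, 0.56 and 0.35, adjusted p = 0.84, 0.075, 0.29 and 0.42); that of *CTF1* was 0.68 and passed without DMSO at 24 hours replicate 1 (adjusted p = 0.0292). *IQGAP2* (2.02), *INKA2* (1.91), *FAXDC2* (1.67) and *TNS2* (1.54) overlap expressed genes, *F2RL2*, *RAP1A*, *CNOT8* and *SPRYD3*, and their reads cannot be told apart from those. *TMEM255A* rose by 1.66. The 15 largest decreases ran from -3.12 to -2.04. Beside the genes already given they held *MIR34AHG*, the host gene of the microRNA miR-34a, which had 659.7, 653 and 717 at 24 hours and 119, 94.5 and 109.5 at 48 hours and 1392, 1644 and 1753 at 24 hours and 1299, 1336 and 1382 at 48 hours in DMSO. Its AZD5153 libraries did not overlap between the times, and it fell by 2.65. *NPR1*, the natriuretic peptide receptor, changed by -2.40, *HSPB7*, a small heat shock protein, by -2.35, *SH2D5* by -2.29, *SHISAL1* by -2.44 and *GIPC3* by -2.11. Of these *NPR1*, *SH2D5* and *GIPC3*, like *ICAM1*, *LIF*, *LCNL1*, *MMP1* and *COL16A1*, had AZD5153 means below 100 at both times and reached the minimum through the DMSO libraries. *NPR1* had 26.8, 18.4 and 28.2 at 24 hours and 1.82, 7.61 and 3.42 at 48 hours, *GIPC3* 56.3, 34.8 and 49.0 at 24 hours and 16.4, 2.17 and 22.2 at 48 hours. Such changes depend on the pseudocount: with 10 in place of 1 they were -1.28 for *NPR1*, -1.36 for *GIPC3*, -1.57 for *SH2D5* and -1.38 for *ICAM1*, and *GIPC3* was at -1.22 without AZD5153 at 48 hours replicate 2. *LCNL1*, a lipocalin-like gene, had 67.0, 72.7 and 61.2 at 24 hours and 16.4, 17.4 and 8.56 at 48 hours, while DMSO libraries went from 42.8, 64.1 and 39.2 at 24 hours to 301, 348 and 309.9 at 48 hours.

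Changes were spread over the genome and were more frequent among genes of higher level. Of 12757 protein-coding genes 18.0% rose and 15.1% fell, and of 1803 lncRNA genes 7.21% and 8.82%. In the lowest quartile of mean level 5.23% rose and 5.1% fell, and in the highest 22.7% and 20.9%. By chromosome, over 23 chromosomes, 9.92% to 19.2% of genes rose and 9.81% to 16.8% fell. Genes with the longest span rose more often than the shortest, 20.4% against 10.5% by quartile, and fell in 14.5% against 11.2%. The genes just inside and outside the minimum level had means of 10.001 and 9.9992 normalized counts.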

How the data were processed

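RNA of SF8628 cells was extracted with a column kit and sequenced on a NovaSeq as paired-end reads after a NEBNext Ultra II library preparation. The submitters' processing notes name STAR, HTSeq, DESeq2 and hg38; the versions and the strand setting of the counting are not given in the sources used here. The deposited values are a signal, gene counts that the authors divided by a DESeq2 size factor for each library (normalized counts), and 100% of them gave whole reads within 0.01 when multiplied back. The table also holds the authors' fold changes and p-values of treatment against vehicle, which were not used. Gene positions and names were from GENCODE 44 on GRCh38 and promoters from RefSeq.

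Genes with a mean of at least 10 were tested with limma 3.58.1 (lmFit and eBayes with trend, R 4.3.3) on log2(normalized count + 1), in a fit of 4 groups and 12 libraries with 8 residual degrees of freedom, two-sided, with Benjamini-Hochberg adjustment over the 15599 genes at 0.05. The log2 scale with a pseudocount of 1 understates changes of low genes. The procedure was tested on simulated data, whose results are not given here. Contrasts were 48 against 24 hours in AZD5153, the same in DMSO, their difference, and AZD5153 against DMSO at each time; contrasts that share libraries were set side by side only. Named genes were the 15 largest changes each way (mean of at least 100, called, no overlap of libraries), up to 2 members each way of each of 36 lists, genes fixed by name, and the 10 largest differences between treatments. *FOSL1*, *CCN1*, *ANKRD1*, *COL6A1*, *COL6A2*, *COL6A3*, *FN1*, *SCD*, *FADS2*, *ATF4*, *KIF11* and *IL11* are outside this rule and were chosen after their values were seen. Members and lists were chosen with earlier results of these data known. Among the named genes, *TGFB2*, *IFIT2*, *CAMK2A* and *CTSS* also had AZD5153 means below 100 at both times and reached 100 over the 12 libraries through DMSO. Alternatives were other pseudocounts, scalings and minimum means, edgeR 4.0.16 and DESeq2 1.42.0 on the recovered reads, a replicate block, and omission of each library. One scaling used 7 genes that the study's methods name as stable. H3K27 acetylation profiles of the series were not analysed here. Results for a few genes are not reported here.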

Additional observations from a re-analysis of the deposited data

Results flagged for a closer look

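Named genes were chosen in part by large changes or differences in these same libraries, which raises the share of them called. The change from 24 to 48 hours differed between AZD5153 and DMSO by the test of the difference for 100 of the 170 named genes, beside 24.5% of all genes tested. Listed here are those 31 that were either called in opposite directions in the treatments (28) or were among the 10 largest differences among genes with a mean of 100 or more over the 12 libraries, 7 being both; 13 changed more upwards in AZD5153 and 18 more downwards. Values are differences of log2 changes, AZD5153 minus DMSO. *E2F8*, *TGFB2*, *NPR1*, *ICAM1*, *GIPC3*, *LCNL1*, *IFITM2* and *CRYAB* had AZD5153 means below 100 at both times and reached that level through the DMSO libraries.

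Among cell cycle and repair genes the difference was 2.08 for *E2F8*, 1.43 for *EXO1*, 1.46 for *CDK1*, 1.43 for *TOP2A*, 1.10 for *POLQ*, 1.10 for *BRCA1* and 0.62 for *MKI67*. Higher in AZD5153 by this measure were also *SOX9* (1.51), *ABCG2* (1.35), *TGFB2* (1.15), *DNAJB1* (0.54), *PSMD2* (0.53) and *MTOR* (0.34).

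Downwards, *LCNL1* had the largest difference at -4.94, from a DMSO change of 2.72 and an AZD5153 change of -2.22. *GDF15* followed at -4.32, with 2.63 and -1.69. Natriuretic receptor *NPR1* (-3.46), the small heat shock genes *HSPB7* (-3.24) and *CRYAB* (-2.59), the adhesion molecule *ICAM1* (-3.17) and the genes *GIPC3* (-3.02) and *SHISAL1* (-2.72) were also lower by this measure. The interferon-induced transmembrane family gave *IFITM2* (-2.87) and *IFITM10* (-2.85). Hypoxia-linked genes were *BHLHE40* (-2.14), *ADM* (-1.15) and *SLC2A3* (-1.29). *CHI3L1* (-2.63), *SQSTM1* (-1.41), *HDAC9* (-1.28), *ABCA8* (-1.28) and *NRXN2* (-1.03) completed the set. The AZD5153 calls of *ABCA8*, *NRXN2* and *PSMD2*, on which their opposite direction rests, were lost in 4, 6 and 5 of 18 alternatives, and those of *TGFB2* and *MTOR* in 2 and 11. Replicate 1 of DMSO at 24 hours, which stood apart from its replicates, enters each of these values. Without it all 31 differences kept their sign and their call, as did 99 of the 100 (*UGDH* being lost), and of the 70 named genes whose difference was not called 12 gained the call, among them *SREBF1* and *JUND*. The value that moved most in this list was that of *IFITM10*, which went to -2.22; the gene overlaps an unnamed one on the same strand.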

How the results depend on the processing

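Requiring a log2 change of at least 1 left 286 genes higher and 287 lower in AZD5153, 485 and 95 in DMSO, and 196 and 558 for the difference. Scaling on the 7 stable genes left 1372 lower in AZD5153. Omitting single libraries gave 1918 to 2187 higher and 1703 to 1801 lower in AZD5153, 1935 to 2831 and 2507 to 3204 in DMSO, and 1794 to 2724 and 1213 to 1977 for the difference. Counts of these comparisons in the other alternatives stayed within 1.5 times, edgeR giving 2296 and 2318 and DESeq2 2534 and 2195 in AZD5153. Whether replicate numbers pair the libraries could not be decided. Same-numbered AZD5153 libraries had correlations of deviations of 0.0254, 0.0134 and 0.0306, and those with unlike numbers -0.0416 to 0.0163. AZD5153 at 24 hours replicates 1 and 3 correlated best with their own number at 48 hours, and replicate 2 with replicate 1 (0.0163). Correlations this small, from 3 libraries a group, cannot show or exclude pairing. With the number as a replicate block 2313 and 1999 genes were called in AZD5153, 2405 and 2854 in DMSO and 2012 and 1426 for the difference.

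*BRD3*, whose reads may be shared with an overlapping gene, turned to 0.0174 with the stable-gene scaling and *HEXIM1* to -0.0119 without AZD5153 at 24 hours replicate 3 (-0.0119 to 0.0789 over the single omissions of AZD5153 libraries), neither being called in any fit run; the cause was not tested. Of the 158 named genes called, 131 were called in every alternative run for them (at most 18, the minimum change of 1 left aside) and 27 were lost in at least one. The 12 genes named outside the rule were called in every one. The median changes of the ISG, NRF2 and end joining lists changed sign with the stable-gene scaling. List counts of 5 or fewer moved by 1 to 3 genes when single libraries were left out. With 3 libraries a group and a median standard error of 0.115, small changes on the log2 scale were called in some genes and not in others.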
